A study of Saccharomyces cerevisiae with 9 samples.

Results

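Haploid yeast deletion strains that by the labels also lacked PFD1, a subunit of the chaperone prefoldin, were grown in a pool with 5 µM sodium arsenite. They were compared on a tag array with a control culture from the same pool. The members are all strains with a value on this array: 4612 of the 5101 strains with a value anywhere in the series of 9 arrays. Each strain of Saccharomyces cerevisiae carries short DNA tags that mark its deleted gene, so the ratio of tag signals between the cultures measures how well the strain kept up with the rest of the pool. The series also holds 6 arrays of plain haploids at 0, 100, 200, 400, 800 and 1600 µM arsenite and 2 arrays of heterozygous diploids at 0 and 450 µM.

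The pool was made by transforming a heterozygous diploid deletion collection of BY4743 origin (ura3delta0 leu2delta his3delta1, with lys2delta0/LYS2 and met15delta0/MET15, can1delta::LEU2-MFA1pr-HIS3/CAN1 and each gene as xxx::kanMX/XXX) in bulk with a pfd1::TEF1pr-URA3 construct. MATa haploid progeny were then selected at 30 °C to confluence on plates. Plain haploids came from the same kind of diploid pool without the PFD1 construct, on plates with or without arsenite. For the pfd1 pool the control plates held uracil and no arsenite, whereas the arsenite plates lacked uracil. The ratio therefore contains both the arsenite and the uracil difference, and these cannot be told apart. By the labels both cultures carry the PFD1 null mutation. URA3 marks that mutation and is selected only where uracil is absent, so how many cells of the control culture had kept PFD1 was not measured.

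Prefoldin binds newly made actin and tubulin and passes them to the chaperonin CCT, a barrel-shaped folding machine. Yeast without prefoldin is alive but has weak microtubules and actin cables, and is known to depend on genes that guard the spindle. Arsenite is a trivalent arsenic compound that binds thiols; yeast pumps it out with the exporter ARR3 and takes it up through the channel FPS1.

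A strain value is the mean of the strain's tags as log2 of arsenite over control, relative to the median strain of the array, so -1 stands for a 2-fold relative loss. There is 1 array per pool and dose and no replicate, so no difference between pools or doses has a test, and strains are called lower at -1 or below and higher at 1 or above. The direction is likely rather than settled: it rests on the uracil synthesis strains described below and on ARR3 and FPS1 in plain haploids. With the sign turned, every loss here would read as a gain.

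On the pfd1 array 355 strains were lower (7.7% of 4612) and 398 were higher (8.63%). On the plain haploid array at 0 µM, where both cultures had no arsenite, the same rule called 44 of 3905 strains lower (1.13%) and 54 higher (1.38%). The sets of strains behind these counts differ. Of 56 listed essential genes 27 had a value on the pfd1 array, and 10 of these 27 had one at 0 µM. Loss of such a gene is lethal in a haploid, so what their values and calls measure is uncertain. The middle part of the pfd1 pool spread from -0.35 to 0.37 between its quartiles, and the extremes were SWC5 at -6.09 and YOR302W at 5.91. Beyond -2 lay 81 strains and beyond 2 lay 107. The strains next to the thresholds were ATG15 and SMP3 at -1.0025 against DNM1 and EMP65 at -0.9975, and AFT1 and ERP4 at 1.0025 against CKA1 and NEM1 at 0.9975.

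**Figure D1:**
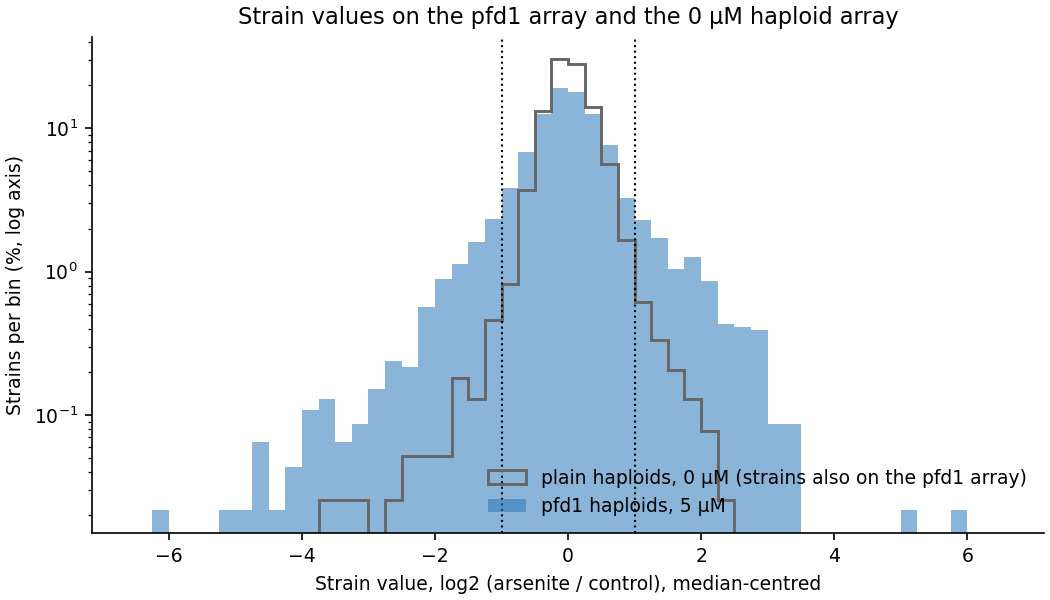
Distribution of strain values on the pfd1 array (filled) and, for strains also on it, on the plain haploid array at 0 µM (line); the horizontal axis is the log2 value relative to the array's median and the vertical axis the percentage of strains per bin on a log scale, with dotted lines at the thresholds of -1 and 1. The pfd1 distribution has longer tails on both sides, with 355 strains at or below -1 and 398 at or above 1.

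Repeat tags give the error within the array. The 2919 strains with exactly 2 tags had a tag correlation of 0.687, and a tag varied around its strain's mean with an SD of 0.483, which makes the error of a strain value 0.341 with 2 tags. The 2 tags share the culture and the DNA, so this error is technical. A further 1630 strains rested on 1 tag, with an error of 0.483. Below, 1 tag is marked for called strains, but not for every uncalled one. Of the lower strains 188 had at least 2 tags, and in 110 of these every tag lay at or below -1; of the higher strains 229 had at least 2 tags and in 169 every tag lay at or above 1. Tags disagreed widely in some strains: MAG1 read -5.17 and -0.28, PAN3 -6.51 and -2.51, URA5 -6.31 and -2.34, while both tags of BIK1 read close together at -4.28 and -4.15.

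**Figure D2:**
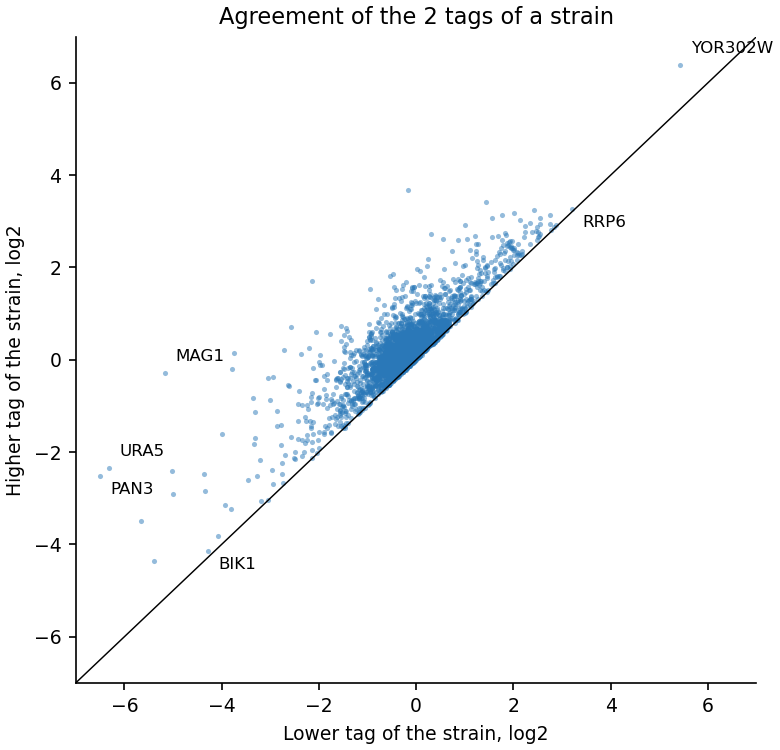
The 2 tags of each strain on the pfd1 array, the lower tag on the horizontal and the higher tag on the vertical axis, both as log2 values relative to the array's median; the line marks equal tags. Strains with large gains such as RRP6 (3.21 and 3.27) lie near the line, and several large losses such as PAN3 and URA5 lie away from it.

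Strains of uracil synthesis were among the lowest of the pool. URA1 (dihydroorotate dehydrogenase) read -5.23, URA2 (the enzyme of the first steps) -4.88, URA5 (the main orotate phosphoribosyltransferase) -4.32 and URA4 (dihydroorotase) -3.98; URA1 and URA4 rested on 1 tag. URA10, the minor copy of URA5, read -0.21. In plain haploids up to 400 µM all 5 lay between -0.28 and 0.71. Since these strains helped to set the direction of the ratio, their side is not a result. FUR4, the uracil permease, lay on the other side at 1.75 with tags at 1.46 and 2.03, whereas FUI1, the uridine permease, read 0.24 and URK1, uridine kinase, 0.32.

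The highest strains of the pool were YOR302W at 5.91 (tags 5.43 and 6.39) and CPA1 at 5.01 (1 tag). CPA1 encodes a subunit of the arginine-specific carbamoyl phosphate synthetase, and YOR302W is the short reading frame just upstream of it that encodes its attenuator peptide. URA2 carries the other carbamoyl phosphate synthetase of the cell, an enzyme that pyrimidine end products inhibit. No other member of the arginine list was called, the 5 others reading from -0.37 for ARG80 to 0.32 for ARG2. In plain haploids CPA1 had no value and YOR302W only 1, of -1.39 at 400 µM. Both strains were near the median in heterozygous diploids at 450 µM, at 0.11 and 0.18. The parts that uracil and arsenite play in these values were not tested.

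Strains lacking a prefoldin subunit lay near the median of the pfd1 pool. The 6 read -0.26 for GIM3, -0.26 for GIM5, -0.16 for YKE2, -0.12 for PAC10, -0.11 for PFD1 itself and 0.57 for GIM4, and none was called. In plain haploids at 100 µM the same 6 strains read -3.29, -3.35, -3.74, -4.95, -4.06 and -4.50 in that order, and at 800 µM all 6 were called lower (background there 16.2%). All 6 were thus called lower at 100 µM, where 1.98% of all strains were, and none on the pfd1 array, where 7.7% were. The doses and media differ, so the values stand side by side without a test. The PFD1 strain has both disruptions at the same locus, so what its tags measure here is uncertain.

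Tubulin folding strains were low in the pfd1 pool, with 6 of 8 lower, none higher and a median of -1.74. CIN4, a small GTPase that acts with the tubulin cofactors, read -3.95 (tags -4.08 and -3.82). RBL2, which binds beta-tubulin, read -3.31 on 1 tag. PNT1 and DSE3, next to RBL2 by locus number, were also low at -3.88 and -2.94, each on 1 tag. Whether the RBL2 value is separate from those of its neighbours was not tested. CIN1, a cofactor for beta-tubulin, read -2.07, and ALF1, the cofactor that binds alpha-tubulin, -2.04. TUB3, the minor alpha-tubulin, and CIN2 stood at -1.44 and -1.41. The essential tubulins TUB1 and TUB2 read 0.72 and 0.71, each on 1 tag. Since their loss is lethal in a haploid, the meaning of such values is uncertain, as for every essential gene named here.

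Within this group the order differed from that in plain haploids. In plain haploids CIN4 read 0.54, 0.24, -0.03, -0.40 and -1.75 at 0, 100, 200, 400 and 800 µM, so its value at 5 µM in the pfd1 pool was lower than any of these. CIN1 read -0.29, -2.27, -4.13, -6.23 and -6.60 at those doses, so its pfd1 value lay within the tag error of that at 100 µM. ALF1 read 0.99, 0.40, 1.01, 1.68 and 2.36 in plain haploids and thus lay on the other side of the median there. The 2 chaperonin subunits with a value, CCT2 at -0.61 and CCT5 at 0.62, are essential and were not called, and the prefoldin-like BUD27 read 0.74.

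Checkpoint strains, which delay division until chromosomes are attached and the spindle is placed, had a list median of -2.46, with 5 of 6 lower. MAD2 read -3.53 (tags -3.82 and -3.24) and MAD1, its partner at unattached kinetochores, -2.90. BFA1 and BUB2, which together form the GTPase activator that guards spindle position, read -2.67 and -2.24, BUB2 on 1 tag. MAD3 read -1.26, with tags at -2.09 and -0.44, and BUB1 0.22. None of the 6 was called on the plain haploid arrays from 0 to 800 µM, where BUB1 had no value at 800 µM. MAD2 read -0.28, -0.14, 0.36, -0.29 and -0.81 over those doses, and BFA1 0.10, 0.17, 0.41, 0.41 and 0.81.

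Dynein, the motor that pulls the spindle into the bud, and its activator dynactin had 6 of 11 strains lower and a median of -1.28. The dynactin subunits ARP1 and NIP100 read -2.32 each, the cortical anchor NUM1 -1.78 and LDB18 -1.48. The heavy chain DYN1 read -1.45 on 1 tag and JNM1 -1.28. The remaining 5 lay between -0.93 for DYN2 and -0.21 for DYN3. At 800 µM in plain haploids 9 of the 11 were lower (background there 16.2%), with a median of -2.25, against -0.28 at 100 µM.

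Of 11 kinesins and microtubule plus-end proteins 5 were lower and none higher. BIK1, the CLIP-170 homologue, read -4.21, BIM1, the EB1 homologue, -2.32, the minus-end kinesin KAR3 -1.99, the spindle kinesin CIN8 -1.47 on 1 tag and VIK1, a partner of KAR3, -1.08. CIK1, the other KAR3 partner, read 0.73, KIP3 0.61 and KAR9, which guides spindle orientation, -0.09. BIK1 read 0.42, 0.30, 0.28, -0.67 and -1.71 in plain haploids from 0 to 800 µM.

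The Ctf19 complex, which links the centromere to the outer kinetochore, had 6 of 10 strains lower, 1 higher and a median of -1.25. MCM21 read -2.22 on 1 tag, CTF19 -1.94, CTF3 -1.80, IML3 -1.39, MCM16 -1.28 and MCM22 -1.22 on 1 tag. NKP2 was the higher strain at 1.498. IRC15, whose reading frame overlaps that of CTF19, read -1.82. In a list of cohesion and replication fork genes 5 of 10 were lower. DCC1 read -2.82 and CTF8 -2.38, both of the alternative clamp loader. TOF1 read -1.65, its partner CSM3 -1.20 and the helicase CHL1 -1.07 on 1 tag. CTF18, the third subunit of that loader, read 0.02. None of 29 homologous recombination and DNA damage strains was called in either direction (median -0.14, from -0.91 for MEC3 to 0.78 for MMS2). At 800 µM in plain haploids 15 of 28 were lower (background there 16.2%, against 7.7% on the pfd1 array).

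**Figure D3:**
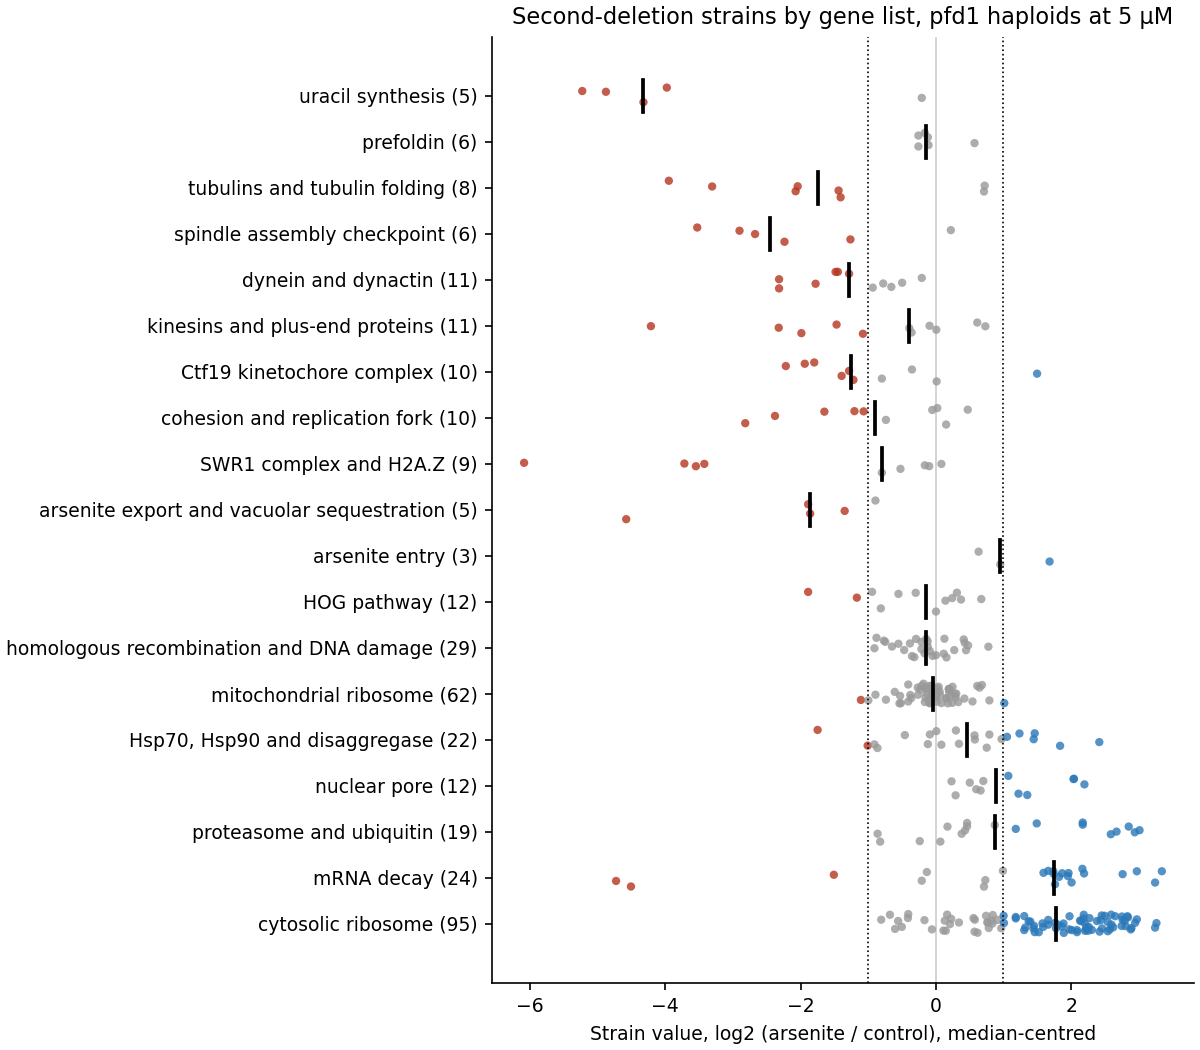
Strain values of 19 gene lists on the pfd1 array, each point a deletion strain (red at or below -1, blue at or above 1, grey between) and each black bar the list's median, with the number of measured strains in brackets; vertical positions within a list are scattered for visibility. Checkpoint, tubulin folding and uracil strains lie to the left, prefoldin strains near 0, and mRNA decay and cytosolic ribosome strains to the right.

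SWR1, the remodeller that puts the histone variant H2A.Z into chromatin, gave 4 of 9 strains lower. SWC5, a subunit of it, was the lowest strain of the pool at -6.09 on 1 tag. HTZ1, H2A.Z itself, read -3.72, YAF9 -3.55 on 1 tag and the ATPase SWR1 -3.42. The other 5 lay between -0.80 for ARP6 and 0.08 for SWC3, so the list split into very low and near-median strains. In plain haploids SWC5 stayed between -0.60 and 0.12 from 0 to 800 µM, while SWR1 reached -3.55 at 800 µM.

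Other strong losses came alone or with partners. SAS2, a histone H4 acetyltransferase, read -3.54 and BMH1, a 14-3-3 protein, -3.59, but their relatives SAS4 (-0.62), SAS5 (0.00) and BMH2 (0.08) were near the median. CTK1, the kinase of the polymerase II tail, read -3.03 and its partners CTK3 and CTK2 -2.69 and -1.59, CTK2 on 1 tag. CTK1 also read -1.88 at 0 µM in plain haploids. The NatC acetyltransferase strains MAK3, MAK10 and MAK31 read -2.25, -1.99 and -1.69. RVS161 and RVS167, which shape endocytic membranes as a pair, read -3.12 and -1.39, and SHE4, a myosin chaperone, -3.03. Of 21 actin cytoskeleton strains 4 were lower (19.0%, against 7.7% of all strains). Just 1, the tropomyosin TPM1 at 1.09, was higher (4.76%, against 8.63%). A few strains separate these counts from the shares over all strains. The groups around SAS2, BMH1, CTK1 and MAK3 were formed after values were seen. Among the 15 lowest strains with every tag past -1, ERG11 at -3.96 is an essential gene, and ARL3, on 1 tag at -4.03, read -3.55 already at 0 µM in plain haploids.

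Strains of arsenite export were low at the dose of 5 µM. The list of export and vacuolar sequestration had 4 of 5 lower and a median of -1.86. ARR1, the transcription factor that induces the exporter, read -4.58, ARR3, the exporter, -1.89, YAP1, a stress transcription factor, -1.86 on 1 tag, ARR2, the arsenate reductase, -1.35 and YCF1, the vacuolar glutathione conjugate pump, -0.89. In plain haploids at 100 µM ARR3 read -5.50 and ARR1 -3.69, so their order was the other way round. On the entry side FPS1 read 1.68 and its activators ASK10 and RGC1 0.95 and 0.63, each of the latter on 1 tag. Of the HOG kinase cascade, which restrains FPS1, 2 of 12 were lower (16.7%), SSK1 at -1.89 on 1 tag and the kinase PBS2 at -1.17. Over all strains of the pfd1 array 7.7% were lower, so this count lies near the background. HOG1 itself read 0.37, against -5.06 at 800 µM in plain haploids. The HOG list had a median of -0.15 here, and at 800 µM in plain haploids 7 of 10 were lower (background there 16.2%).

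Strains of the cytosolic ribosome made up 66 of the 398 gains. Of 95 measured strains these 66 were higher and none lower, with a median of 1.78, against 0.09 at 0 µM in plain haploids. Small subunit strains stood higher than large subunit strains: 34 of 40 were higher with a median of 2.23, against 30 of 51 with a median of 1.31, a difference without a test. RPS19B read 2.84, RPS4B 2.81, RPS0A 2.79, RPS22A 2.75, RPS23A 2.65 and RPS18A 2.62, each with both tags past 1, RPL39 read 2.95, and RPS6B, the highest small subunit strain, 3.26 on 1 tag. Most yeast ribosomal proteins have a pair of gene copies. For the 32 pairs with both copies measured, both were higher in 18, a lone copy in 10 and neither in 4, and the copies differed by a median of 0.775. The widest gap was between RPL1A at -0.56 and RPL1B at 3.24, followed by RPS25A at 2.42 and RPS25B at -0.81; of these 4 strains only RPL1A had 2 tags.

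Factors that assemble the ribosome stood with it. Of 27 measured strains in a list formed after values were seen, 22 were higher and none lower (median 1.87), among them BUD21 at 3.35 on 1 tag, HCR1, which also serves translation initiation, at 2.68, FYV7 at 2.58, RSA1 at 2.57 and REI1 at 2.54. Mitochondrial ribosome strains did not share this position: of 62 measured 1 was lower and 1 higher, with a median of -0.04. At 800 µM in plain haploids, 56 of 68 cytosolic ribosome strains were higher (median 2.27, background 11.6%) and 37 of 48 mitochondrial ones were lower (median -1.36, background 16.2%).

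The mRNA decay list was split to its ends. Of 24 strains 16 were higher and 3 lower, with a median of 1.75. LRP1 and RRP6, of the nuclear exosome, read 3.34 and 3.24, XRN1, the main 5′ to 3′ exonuclease, 2.97, and NAM7, the helicase of nonsense-mediated decay, 2.76; all but RRP6 of these rested on 1 tag. The SKI genes, which feed the cytoplasmic exosome, read 2.17 for SKI3, 2.01 for SKI8, 1.87 for SKI7 and 1.59 for SKI2 on 1 tag. LSM1 and DHH1, which promote decapping, both read 1.74. Opposite to them, PAN2 and PAN3, the subunits of the deadenylase that trims poly(A) tails first, read -4.73 and -4.51. MOT2, a ubiquitin ligase of CCR4-NOT, read -1.51. PAN2 and MOT2 each rested on 1 tag. CCR4 and POP2, the deadenylases of CCR4-NOT, read 1.82 and 1.66, each on 1 tag. PUF4, a protein that binds mRNA 3′ ends, read 2.64, and MUD1, a protein of the U1 splicing particle, 3.37 on 1 tag. In plain haploids PAN2 lay between -0.75 and 0.20 up to 400 µM and read -3.14 at 800 µM.

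Proteasome strains were high as well: 9 of 19 in the list of proteasome and ubiquitin genes were higher and none lower, with a median of 0.87, or 0.28 over the 10 with at least 2 tags. PRE9, the nonessential core subunit, read 3.01 on 1 tag, SEM1, of the regulatory lid, 2.94 on 1 tag, and IRC25 and POC4, which chaperone core assembly as a pair, 2.85 and 2.17. RPN10, a ubiquitin receptor, read 2.59, and the deubiquitinase UBP6 2.67 on 1 tag. UBP3, another deubiquitinase, and its cofactor BRE5 read 2.90 and 2.20. At 800 µM in plain haploids IRC25 read 0.07, POC4 0.15, RPN10 0.67, PRE9 -0.59, UBP3 -0.79 and BRE5 -0.30. MUB1, which helps the ligase that degrades RPN4, read 2.64 and, unlike those, was also high at 800 µM in plain haploids (3.00), while RPN4, the transcription factor of proteasome genes, read -0.24 and UBI4, the polyubiquitin gene, 0.17.

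Hsp90 cochaperones included the largest gain among 22 Hsp70, Hsp90 and disaggregase strains. Of the 22, 6 were higher and 2 lower (27.3% and 9.09%, against 8.63% and 7.7% of all strains). STI1, which joins Hsp70 to Hsp90, read 2.42, the Hsp90 gene HSC82 1.84 and the cyclophilins CPR6 and CPR7 1.45 and 1.24. Also higher were SSB1 at 1.46 on 1 tag and ZUO1 at 1.05. HSP82, the other Hsp90 gene, read 0.79, SBA1 0.75, AHA1 0.58 and HCH1 -0.46, none of them called. The Hsp70 exchange factor SSE1 read -1.01 on 1 tag and the essential cochaperone gene CNS1 -1.75. Nuclear pore strains were high in 6 of 12 and low in none, with NUP170 at 2.20, NUP120 at 2.04 on 1 tag and POM34 at 2.04.

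Regulators of Ras and cyclic AMP signalling held calls on both sides. The Ras inhibitors IRA2 and IRA1 read 2.84 and 1.61 and RGS2, which restrains GPA2, 1.52 (tags 0.30 and 2.73), whereas GPA2 and RAS2, which activate the pathway, read -1.36 and -1.26. In all 3 of 12 were higher and 2 lower, against 8.63% and 7.7% of all strains. A few strains separate these counts from those shares. The other 7 were not called, among them the kinase subunits TPK3 at 0.72 and TPK2 at -0.29, RAS1 at -0.49 and the phosphodiesterases PDE1 at 0.08 and PDE2 at 0.99. IRA2 read 0.09, -0.93, -2.19, -4.34 and -4.40 in plain haploids from 0 to 800 µM, and IRA1 read -5.89 at 800 µM. By the gap between the values they lead the strains that were called on opposite sides in the pfd1 pool and at 800 µM, followed by URA5, URA1, BUL1, a partner of the ubiquitin ligase Rsp5 (1.42 against -4.85), PEX10, of peroxisome import (1.74 against -3.74), and ITR1, the inositol transporter (1.70 against -3.42).

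**Figure D4:**
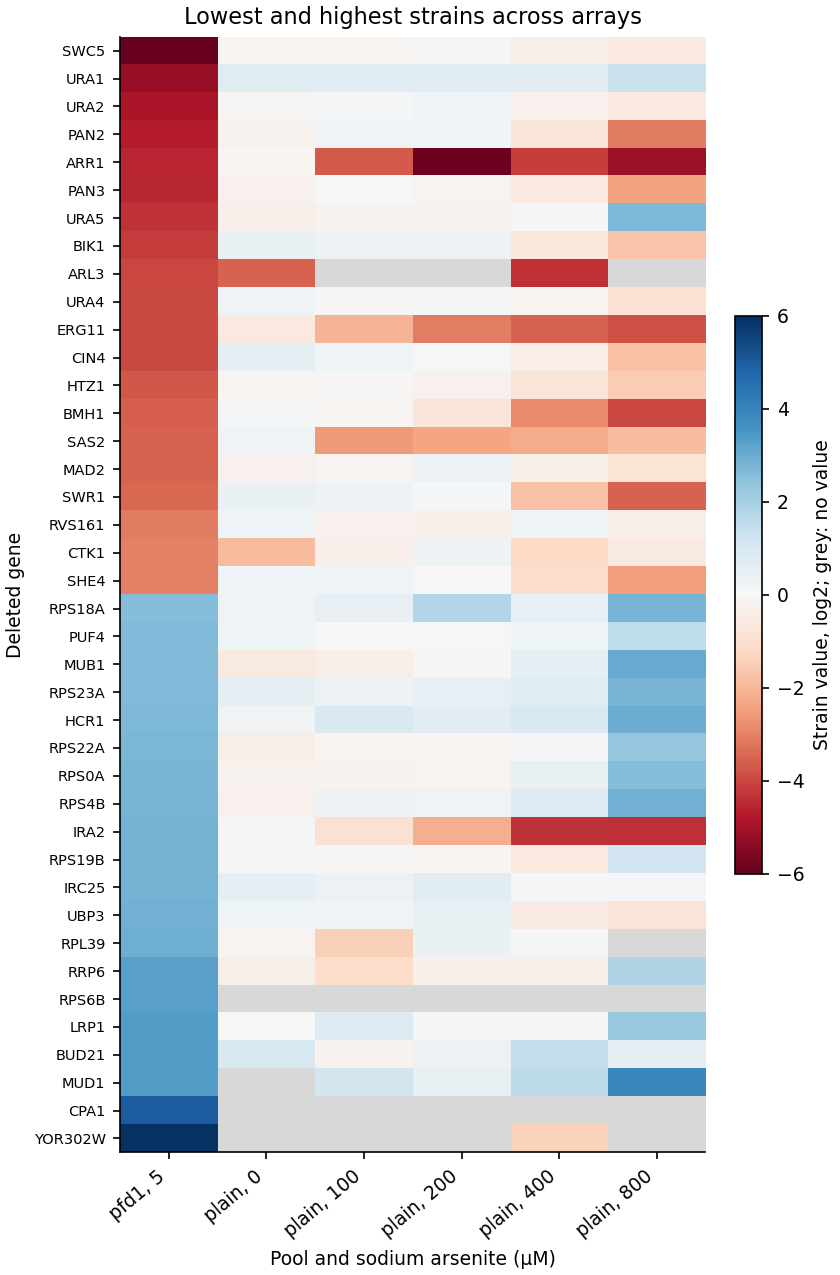
Values of the 20 lowest and 20 highest named strains on the pfd1 array and on the plain haploid arrays from 0 to 800 µM, coloured by log2 value from red (loss) to blue (gain), with grey for no value. Most of the low strains are near white in plain haploids up to 200 µM, apart from ARR1, SAS2, ERG11, ARL3 and CTK1, and IRA2 lies on opposite sides in the pools.

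Of the plain haploid arrays, the one at 800 µM correlated most with the pfd1 array over strains. The correlation over strains was 0.426 with 800 µM (3943 strains), 0.306 with 400 µM, 0.217 with 200 µM, 0.197 with 100 µM, 0.181 with 0 µM and 0.253 with 1600 µM, where 2508 strains had a value. All arrays share the tag probes and the dye layout, and the spread of values was widest at the high doses. The 2 tags of a strain also agreed least at low doses. Their correlation was 0.141, 0.342, 0.518, 0.715 and 0.879 at 0, 100, 200, 400 and 800 µM, and 0.859 at 1600 µM. The order of the arrays may therefore reflect how much of their values is tag error, which was not tested. Of the pfd1 losses also measured at 800 µM, 152 of 260 were lower there too, 58.5% of the pfd1 losses and 24.0% of the 633 losses at 800 µM; of the gains, 169 of 316 were shared, 53.5% of the pfd1 gains and 36.8% of the 459 gains. At 100 µM, where 1.98% of strains were lower and 1.15% higher, 18 of 267 losses (6.74%) and 18 of 331 gains (5.44%) were shared. Among pfd1 losses with a value on all 5 plain haploid arrays up to 800 µM, 100 of 232 were not lower on any of them. Of the gains 134 of 297 were not higher on any. The matching shares over all strains with a value on these 5 arrays were not computed. The shares of all strains called lower and higher were 2.95% and 1.8% at 200 µM, 9.17% and 2.11% at 400 µM, and 16.2% and 11.6% at 800 µM.

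**Figure D5:**
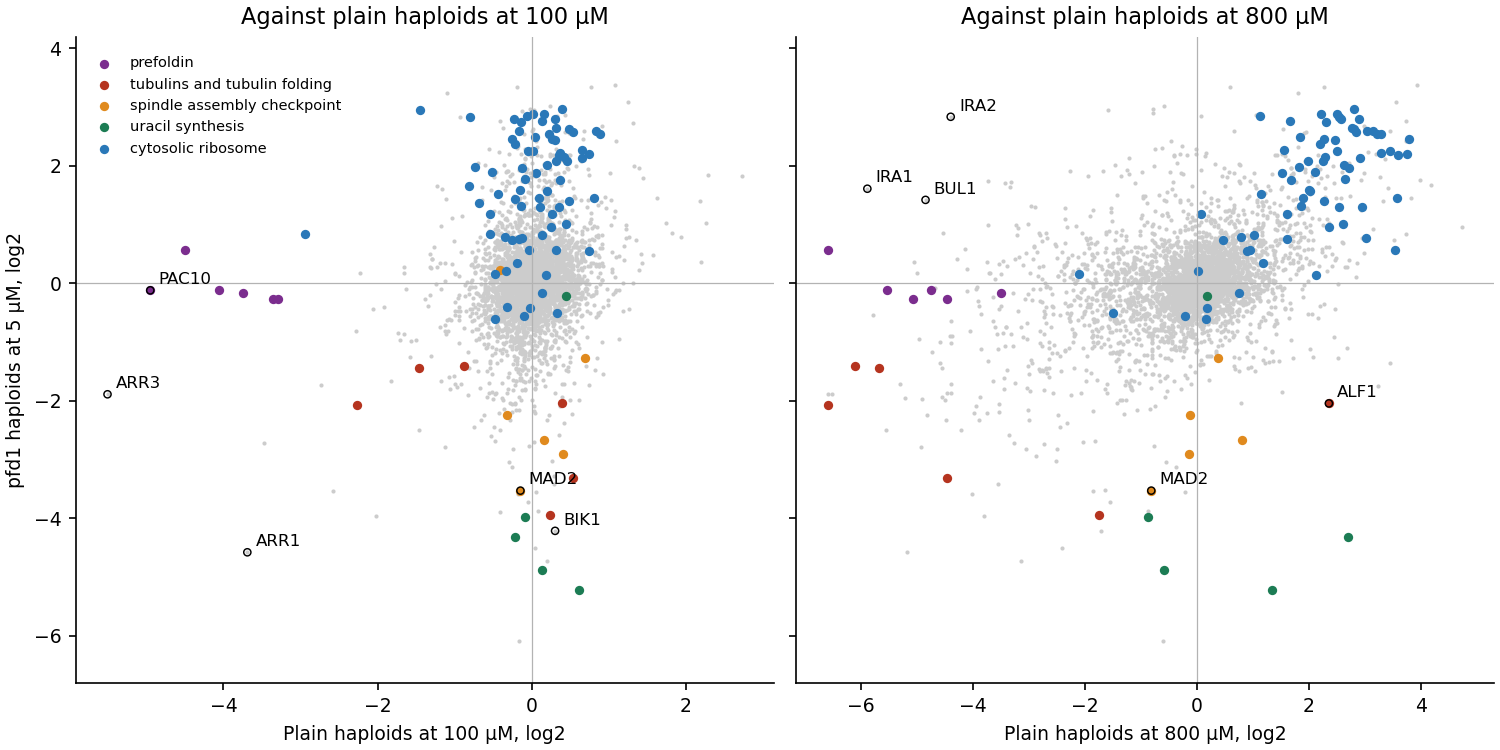
Strain values on the pfd1 array at 5 µM (vertical axis) against plain haploids at 100 µM (left) and 800 µM (right), all as log2 values relative to each array's median, with each point a strain and 5 gene lists coloured. Prefoldin strains lie far left and near 0 on the vertical axis, checkpoint and uracil strains lie low and near 0 on the horizontal axis at 100 µM, and ribosome strains lie high in both pools at 800 µM.

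Both direct neighbours of the disrupted locus were low. ATP12 and ATG27, the genes on either side of PFD1 in the reference gene order, read -2.77 (1 tag) and -1.61 (tags -2.24 and -0.99), and in plain haploids up to 800 µM they stayed between -0.77 and 0.15. Over 5 genes on each side 3 of 10 strains were lower and 1 higher, with a median of -0.445. Over 10 genes on each side 3 of 19 strains were lower and 5 higher, with a median of 0.22. Over 40 genes on each side 5 of 66 were lower and 9 higher (median 0.03). The shares over all strains were 7.7% lower and 8.63% higher. By chromosome the share of lower strains ran from 4.23% on chromosome I to 11.9% on chromosome III, and that of higher strains from 3.39% on chromosome III to 14.1% on chromosome I.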

How the data were processed

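The authors deposited a table of log2 ratios, 1 value per tag probe and array; taking them as log2 is an inference, since scale, centring, direction and filters were not given in the sources used here, and a natural log could not be told apart. Per the labels, tags were amplified from genomic DNA, with the control culture in Cy5 and the arsenite culture in Cy3 and no dye swap, so a tag's dye bias stays in each value. The sign was turned to arsenite over control. Of 22575 probes 9727 had a value; 8765 carry 1 gene in the platform annotation, 962 none and 0 several, and 0 symbols needed an update (R64). On the pfd1 array 8556 probes had a value and the deposited median strain lay at 0.09. Tags were averaged per strain and centred on the median strain (Python 3.11.15, pandas 2.3.3). With 1 array per group no test across samples was made. Named strains are the 15 lowest and 15 highest with at least 2 tags, all past the threshold, the 5 lowest and 5 highest with 1 tag, called members of 40 gene lists and all members of the main lists; other strains named were chosen after values were seen. The members and lists were chosen with earlier results of these data known, and 11 further lists were added after values were seen. Strain averaging was tested on simulated data. The number of arrays limits precision. No sequences were used here.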

Additional observations from a re-analysis of the deposited data

Results flagged for a closer look

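Probes without a gene name in the platform annotation enter no strain value. More of them lay past the thresholds on the pfd1 array than on the plain haploid array at 0 µM, as did more of the named strains. Of 864 such probes 40 lay at or below -1 (4.63%) and 101 at or above 1 (11.7%), against 7 (1.03%) and 15 (2.21%) of 678 at 0 µM. Of the named strains 7.7% were lower and 8.63% higher on the pfd1 array, against 1.13% and 1.38% at 0 µM. Those shares are of strain values, many of them means of tags, whereas the unnamed probes are counted singly. The values of the unnamed probes ran from -4.00 to 4.32 on the pfd1 array. Which strains these probes mark is not known from the annotation used here.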

How the results depend on the processing

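No paired analysis was possible because each pool and dose has 1 array. The counts of 355 lower and 398 higher strains depended on the rule of size: they were 188 and 232 over strains with at least 2 tags (of 2982), 110 and 169 where every tag had to pass (chosen after seeing the data), 81 and 107 at a threshold of 2, 206 and 260 below -1.39 or above 1.37, tail percentiles of the plain haploid 0 µM array, and 111 and 153 after scaling to the spread of that array. Without centring they were 420 and 348. That scaling moved the medians of uracil synthesis to -2.40, checkpoint to -1.36, export to -1.03, tubulin folding to -0.967, dynein to -0.713, Ctf19 to -0.694, mRNA decay to 0.974 and cytosolic ribosome to 0.988, by its construction. The second tag set gave -5.38 for uracil synthesis, -2.95 for checkpoint and 2.23 for arsenite entry (1 strain). The SWR1 list, which is split, moved from -0.80 to -2.27 in the first tag set and -4.24 after subtracting the 0 µM array. With at least 2 tags, entry was 1.68 (1 strain) and the proteasome list 0.28. Of the list medians recomputed, prefoldin alone changed sign, from -0.14 to 0.09 after that subtraction, neither past the threshold. Of 40 named strains, ARL3 alone left the threshold, at -0.47 after that subtraction; the other 215 of 216 values stayed past 1 in size. CTK1 was -1.14 there. No value has a replicate check.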

Other observations

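Over all strains on the pfd1 array 7.7% were lower and 8.63% higher. The lists of this section are small, so a few strains separate many of the counts from those shares. Of 16 ESCRT strains, whose complexes sort membrane proteins into the vacuole, 6 were lower and 1 higher (median -0.50). STP22 read -1.86, SNF7 -1.66 and DID4 1.36, each on 1 tag. Of 18 vacuolar ATPase strains 3 were lower and none higher, and the list median was -0.70, with VMA7 at -1.41 on 1 tag and VMA8 at -1.31. HOPS, CORVET and retromer strains had 1 of 14 lower (median -0.16).

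Chromatin and transcription lists held calls on both sides. Of 11 Rpd3 large complex strains 3 were lower, RPD3 at -2.21 on 1 tag, PHO23 at -1.18 and SIN3 at -1.07. RXT2 was higher at 1.10. SWI/SNF, SAGA and Mediator gave 4 of 22 lower and 1 higher, with the acetyltransferase GCN5 at -1.97 and its partner NGG1 at -1.66 on 1 tag. COMPASS and H2B ubiquitination gave none of 9 lower and RAD6, the ubiquitin-conjugating enzyme, at 2.19. In an INO80 complex list formed after values were seen, 2 of 10 strains were lower and 1 higher (median -0.225). INO80 itself read -2.19 on 1 tag and its subunit IES6 -2.03, while IES3 read 2.86 on 1 tag. The others lay between -0.81 for TAF14 and 0.22 for NHP10.

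The counts that follow lie within a few strains of the shares over all strains, 7.7% lower and 8.63% higher. In the cell wall list 3 of 18 were lower, GAS1 at -1.72, SMI1 at -1.09 and CHS5 at -1.03, and SWI4 was higher at 2.11. Mating pathway strains had 3 of 11 higher, FUS3 at 1.65, STE4 at 1.42 and STE5 at 1.27 on 1 tag, and none lower. Glutathione and redox strains had 3 of 19 higher and none lower. TRR2 read 1.82 and TSA1 1.39, each on 1 tag, and TRX1 1.29. TRR2 and TRX1 already read 2.22 and 1.61 at 0 µM in plain haploids. Elongator strains had 2 of 11 higher, KTI12 at 1.89 and ELP2 at 1.05 on 1 tag. Ergosterol strains had ERG6 at -1.96 and ERG3 at 1.31 among 12, each on 1 tag. None of 22 sulfur assimilation strains and none of 6 GET pathway strains was called, and LYP1 at -1.24 was the call among 9 selection and marker genes. Of 27 strains of essential genes 3 were lower and none higher.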
